A study of Mus musculus with 4 samples.

Results

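Collagens are secreted or membrane-bound proteins in which polypeptide chains wind into a triple helix. The 44 genes described here are all mouse genes of the deposited feature list whose symbol reads Col, a number, the letter a and a number with nothing after it. They stand among 55401 mouse genes, and 1 further symbol of the same start (Col4a3bp, which encodes a lipid transfer protein) carries a suffix and was not included. No expression value entered this rule, though the collagen genes were chosen as a topic with earlier results of these data known. Their transcripts were counted in nuclei of the hippocampus and followed over cell classes, starting with fibroblasts, mural cells and endothelial cells.

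The nuclei came from mice of 3 genotypes. WT littermates served as the reference. PS19 mice carry human MAPT with the P301S mutation, in the 1N4R form of tau, under the prion protein (Prnp) promoter, and serve to model tauopathy. TG_PS19 mice come from a cross of PS19 to the SORLA-Rosa26 line, which overexpresses the sorting receptor SORLA from a CMV/β-actin promoter element. Frozen hippocampi were pooled within a genotype, from animals that the series calls aged, and their age, number and sex are not given in the sources used here. There was 1 library of WT, 2 of PS19 and 1 of TG_PS19, so that no spread between samples was measured in WT or TG_PS19. Nothing says that the 2 PS19 libraries came from separate animals, and p-values then measure only the spread between these samples, which may be technical.

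The libraries held 4643 to 12762 barcodes at a median of 2643 to 3708.5 unique molecular identifiers (UMIs) each, with the higher medians in PS19. Levels are given as CPM, the UMIs of a gene per 1000000 UMIs. Here these are the UMIs of all nuclei kept in a library, with or without a class name, and later those of a class. Human MAPT had 0 UMIs in WT, with an upper limit of 0.0740 CPM, and was at 12.98 to 18.8 CPM in the other 3 libraries. Human SORL1 was at 66.0 CPM in TG_PS19, with 2, 7 and 0 UMIs in all in WT and the PS19 replicates. In TG_PS19, 52.8% of the nuclei with a class name had an Xist UMI, against at most 1.35% in the other libraries. Female and male nuclei were thus unevenly spread over the groups, which bears on the X-linked genes Col4a5 and Col4a6. Any 2 libraries shared 5 to 32 barcodes, at most 0.474% of either.

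Collagens build the scaffold between cells. Fibrillar collagens form the cables of connective tissue, type IV collagens form the sheet of the basement membrane, and further types tether fibrils, span the cell membrane or line vessel walls. In brain they are found mostly in the meninges and around blood vessels, where fibroblasts, mural cells (pericytes and smooth muscle) and endothelial cells share a basement membrane. Single collagens are also made by neurons and glia.

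The genes of type IV collagen lie in head-to-head pairs, which is why start regions of some of them are shown first. By GENCODE M21 (mouse build GRCm38), Col4a1 (ENSMUSG00000031502.11, chr8:11198423-11312826, minus strand) and Col4a2 (ENSMUSG00000031503.13, chr8:11312805-11449287, plus strand) start 21 bases apart. Col4a3 and Col4a4 on chromosome 1 start 72 bases apart, and Col4a5 (ENSMUSG00000031274.16, chrX:141475385-141689234, plus strand) and Col4a6 (ENSMUSG00000031273.16, chrX:141165403-141474076, minus strand) start 1309 bases apart. Col16a1 (ENSMUSG00000040690.15, chr4:130047840-130099283, plus strand) is shown with them because its difference between genotypes in oligodendrocytes held in every alternative processing with a test. The windows below run from 250 bases before to 50 bases after each RefSeq start on GRCm38.p6, each 5′ to 3′ on the strand of its gene. Their positions are chr8:11312777-11313076 (minus) for Col4a1, chr8:11312555-11312854 (plus) for Col4a2, chrX:141475169-141475468 (plus) for Col4a5, chrX:141474027-141474326 (minus) for Col4a6 and chr4:130047590-130047889 (plus) for Col16a1. Capitals mark the CCAAT box (CCAAT or ATTGG), the GC box (GGGCGG or CCGCCC) and the TATA box (TATAAA or TTTATA) on either strand.
Col4a1: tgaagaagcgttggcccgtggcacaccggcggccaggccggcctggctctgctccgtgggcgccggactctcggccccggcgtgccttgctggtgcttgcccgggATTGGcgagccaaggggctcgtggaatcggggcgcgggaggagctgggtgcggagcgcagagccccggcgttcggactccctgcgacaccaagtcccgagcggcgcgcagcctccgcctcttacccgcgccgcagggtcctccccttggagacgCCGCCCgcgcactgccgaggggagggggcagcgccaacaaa
Col4a2: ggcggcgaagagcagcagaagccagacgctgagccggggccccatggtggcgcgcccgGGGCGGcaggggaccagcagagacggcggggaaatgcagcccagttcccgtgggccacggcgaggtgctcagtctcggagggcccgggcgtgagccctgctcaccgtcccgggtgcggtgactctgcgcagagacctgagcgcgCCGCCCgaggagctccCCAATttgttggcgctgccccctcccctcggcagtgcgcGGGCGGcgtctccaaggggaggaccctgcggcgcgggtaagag
Col4a5: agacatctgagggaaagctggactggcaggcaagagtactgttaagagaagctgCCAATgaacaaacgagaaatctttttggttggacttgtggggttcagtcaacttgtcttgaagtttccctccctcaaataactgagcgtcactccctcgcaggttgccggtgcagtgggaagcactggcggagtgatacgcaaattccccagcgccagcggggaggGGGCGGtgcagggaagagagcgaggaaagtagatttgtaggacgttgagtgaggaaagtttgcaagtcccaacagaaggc
Col4a6: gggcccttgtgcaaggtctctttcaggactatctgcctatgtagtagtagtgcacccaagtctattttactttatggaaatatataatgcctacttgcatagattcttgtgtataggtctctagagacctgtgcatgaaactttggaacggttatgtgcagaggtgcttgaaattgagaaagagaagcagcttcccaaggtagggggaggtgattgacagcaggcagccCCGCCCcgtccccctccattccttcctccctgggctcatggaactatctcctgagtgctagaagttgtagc
Col16a1: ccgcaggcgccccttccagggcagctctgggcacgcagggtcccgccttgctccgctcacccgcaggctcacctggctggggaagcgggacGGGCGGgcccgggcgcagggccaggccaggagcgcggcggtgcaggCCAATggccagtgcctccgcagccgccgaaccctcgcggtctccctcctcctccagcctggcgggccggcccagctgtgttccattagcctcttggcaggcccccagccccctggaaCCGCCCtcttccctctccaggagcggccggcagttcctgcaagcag

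The windows of Col4a1 and Col4a2 overlapped by 78 bases, those of Col4a5 and Col4a6 by 0. Col4a1 held 1 CCAAT and 1 GGGCGG, Col4a2 held 1 and 3, Col4a5 held 1 and 1, Col4a6 held 0 and 1, and Col16a1 held 1 and 2. None of the 5 held TATAAA, and no 2 matches within a window overlapped. The 1 GGGCGG of Col4a1 lies in the 78 shared bases. It is the same site as the last GGGCGG of Col4a2, read on the other strand. Of the 44 genes, 35 had a RefSeq window, with 38 windows in all. CCAAT was in 13 of the 38, against 37.4% of the 32851 windows of all genes. GGGCGG was in 23 of the 38 (35.7% of all windows) and TATAAA in 5 of the 38 (13.6%). The GC content of the printed windows was 74.0%, 73.7%, 52.7%, 48.3% and 74.3% in the order shown, against a median of 52.7% over all windows. The window of Col4a4, which is not printed, held 0 matches to CCAAT, 0 to GGGCGG and 0 to TATAAA. All of these counts describe the letters of the windows only.

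Classes were rebuilt from clusters of nuclei by marker lists that hold no collagen, and the collagens were also left out of the genes used for clustering. CPM of a class are scaled by the UMIs of that class in a library. In the class called fibroblasts, all 9 markers were present in every library at a summed 6046 to 6623 CPM. Astrocyte markers, all 8 present, summed to 5162, 6412, 6007 and 6454 CPM in fibroblasts and to 5389.6, 6063, 6079 and 6232 CPM in mural cells (WT, PS19 replicates 1 and 2, TG_PS19). All 11 mural markers summed to 14583 to 16579.5 CPM in mural cells, and all 10 endothelial markers to 15517 to 18342 CPM in endothelial cells. There were 867 WT, 329 and 295 PS19 and 360 TG_PS19 fibroblast nuclei, 316, 141, 148 and 186 mural nuclei, and 370, 135, 154 and 242 endothelial nuclei. Of these 3 classes the lowest total was 253993 UMIs, in mural cells of TG_PS19.

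Fibroblasts held the broadest set of collagens. Of the 44 genes, 20 had their highest mean level over the 12 tested classes in fibroblasts, 7 in mural cells and 1, Col6a6, in endothelial cells. The other 16 were highest in neurons (7), oligodendrocyte precursors (3), oligodendrocytes (2), astrocytes (2) or microglia (2). The members reached 50 UMIs or more in a class for 29 genes in fibroblasts, 10 in mural cells and 5 in endothelial cells. These placements are descriptions of the classes and carry no test.

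**Figure D1:**
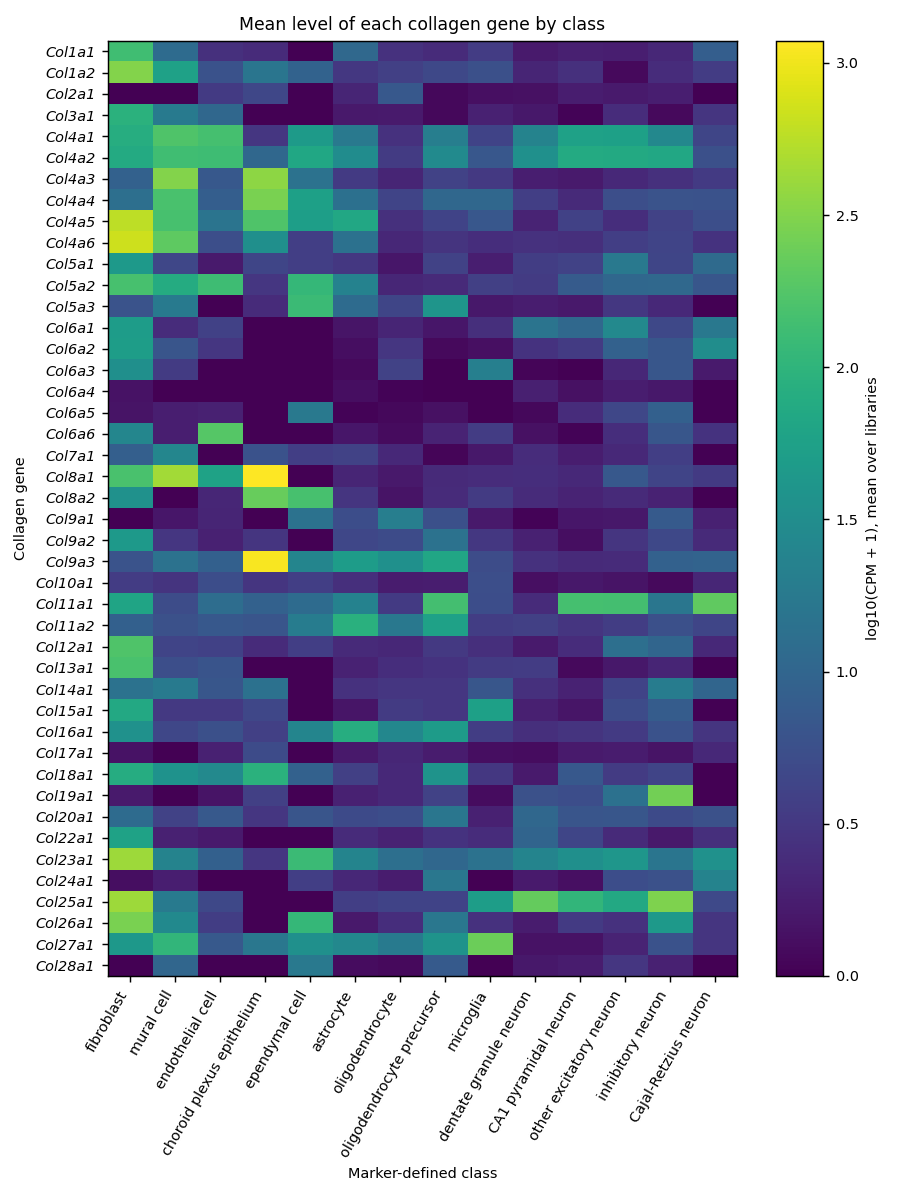
Mean level of the 44 collagen genes (rows) in 14 classes (columns), as log10 of 1 plus the CPM averaged over the libraries that hold the class, from dark (0) to bright. Fibroblasts show the most bright rows, while Col19a1 is bright in inhibitory neurons, Col27a1 in microglia and Col8a1 and Col9a3 in choroid plexus epithelium.

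The fibroblast class joined 3 clusters. Cluster 5, led by Lama1, Slc6a13 and Slc7a11, made up 75.4% of the class in WT, 82.1% and 80.0% in PS19 and 77.5% in TG_PS19. Cluster 17, led by Slc47a1, Bnc2 and Prg4, made up 21.1%, 12.2%, 14.6% and 13.3%, and cluster 26, led by Nnat and Prdm6, made up 3.5% to 9.2%. In the values that follow, the libraries are given in the order WT, PS19 replicate 1, PS19 replicate 2 and TG_PS19 where they are not named.

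Among the fibrillar collagens, Col1a2 and Col1a1 encode the chains of type I collagen, the main collagen of connective tissue. Col1a2 was at 299.8 CPM in WT, 380.3 and 291 CPM in PS19 replicates 1 and 2, and 293 CPM in TG_PS19 in fibroblasts, so that PS19 replicate 1 was highest and the other 3 libraries lay together. Col1a1 was at 144, 145, 116 and 133 CPM, and WT and TG_PS19 lay within the range of the PS19 replicates for it. Col3a1, whose product forms fibrils with type I, was at 86.6, 84.3, 87.3 and 108 CPM. Highest for Col3a1 was TG_PS19, and WT lay between the PS19 replicates. The type V chains regulate fibril width. Col5a2 was at 160.1, 140.0, 139 and 162 CPM. Col5a1 was at 38.9, 38.7, 53.6 and 50.3 CPM. For Col5a2 the PS19 replicates were just below both other libraries, with overlapping counting intervals. The type XI and type XXVII genes Col11a1 and Col27a1 belong to the same family. Col11a1 was at 64.7, 61.5, 73.6 and 45.5 CPM, and Col27a1 at 41.1, 61.5, 43.1 and 25.1 CPM. In both, TG_PS19 was lowest and the difference from PS19 was not called (adjusted p 0.531 and 0.136, edgeR). Outside fibroblasts Col1a1, Col3a1 and Col1a2 had their next highest level in mural cells, at a mean of 10.9, 17.4 and 56.1 CPM.

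Of the basement membrane genes, Col4a5 and Col4a6 had their highest level of all classes in fibroblasts. Col4a6 was at 552 CPM in WT, 742 and 737 CPM in PS19 replicates 1 and 2, and 732 CPM in TG_PS19. WT was lowest and the other 3 libraries lay close together, with an adjusted p of 0.0603 for PS19 against WT (edgeR, log2 fold change 0.44, SE 0.14), which missed the threshold of 0.05. Col4a5 was at 522, 558, 653 and 599.9 CPM, with WT lowest and TG_PS19 between the PS19 replicates. Both sat almost wholly in cluster 5. Col4a6 was at 798, 960.3, 970.0 and 1007 CPM in cluster 5 and at 13.8, 7.04, 0 and 7.25 CPM in cluster 17. Col4a5 was at 729.5, 701, 839 and 801 CPM in cluster 5 and at 35.6, 35.2, 29.5 and 14.5 CPM in cluster 17. The widespread chains Col4a1 and Col4a2 were lower in fibroblasts than in mural cells. Col4a1 was at 75.6, 71.7, 84.1 and 95.8 CPM. Col4a2 was at 76.7, 70.6, 67.3 and 83.8 CPM, both highest in TG_PS19. Col4a4 was at 9.87, 14.8, 16.8 and 7.18 CPM, from 53 UMIs in all.

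Type VI collagen forms beaded filaments near cells, and its fibroblast genes were low and variable. Col6a1 was at 63.6, 63.8, 36.8 and 32.3 CPM, so that PS19 replicate 1 equalled WT and PS19 replicate 2 lay near TG_PS19. Col6a2 was at 58.7, 53.5, 42.1 and 46.7 CPM. Col6a3 was at 40.0, 30.7, 36.8 and 25.1 CPM, with WT highest in both. Col6a6 was at 24.1, 29.6, 22.1 and 23.9 CPM, with WT and TG_PS19 within the PS19 range. Type VIII forms a short-chain network in vessel walls and eye. Its Col8a2 was at 30.1, 31.9, 43.1 and 34.7 CPM, again with overlapping groups, while Col8a1 is described with the calls.

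The collagens that decorate fibrils (the FACIT family) bridge fibrils and other matrix. Col12a1 was at 174, 169, 158 and 172 CPM, with the PS19 replicates just below WT and TG_PS19. Col9a2 was at 37.8, 59.2, 49.4 and 34.7 CPM, higher in both PS19 libraries than in either other library (adjusted p 0.45 and 0.518, edgeR). Col16a1 was at 36.2, 35.3, 34.7 and 33.5 CPM. Col14a1 was at 14.3, 13.7, 12.6 and 13.2 CPM, each the same in all libraries within counting error. The multiplexins Col15a1 and Col18a1 carry an endostatin-like end and sit in basement membranes. Col15a1 was at 77.3, 67.2, 53.6 and 80.2 CPM. Col18a1 was at 74.0, 82.0, 77.8 and 79.03 CPM. PS19 replicate 2 was lowest for Col15a1, and no order by genotype was seen for Col18a1. By cluster, Col15a1 was at 108, 86.5, 59.9 and 109 CPM in cluster 5 and 11.9, 7.04, 47.2 and 0 CPM in cluster 17.

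Transmembrane collagens anchor in the cell membrane and can be shed. Col23a1 was at 433, 419, 359 and 467 CPM, lowest in PS19 replicate 2 and highest in TG_PS19. Col13a1 was at 161, 157, 158 and 146 CPM, the same in all libraries within counting error. Col26a1, a collagen with an EMI domain, was at 275, 271, 294 and 298 CPM, with WT between the PS19 replicates. Within the class, Col26a1 was at 67.2, 338, 212 and 174 CPM in cluster 17, where WT was lowest, and at 353, 252, 314 and 323 CPM in cluster 5, where WT was highest. Col25a1 and Col22a1 are described with the calls.

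**Figure D2:**
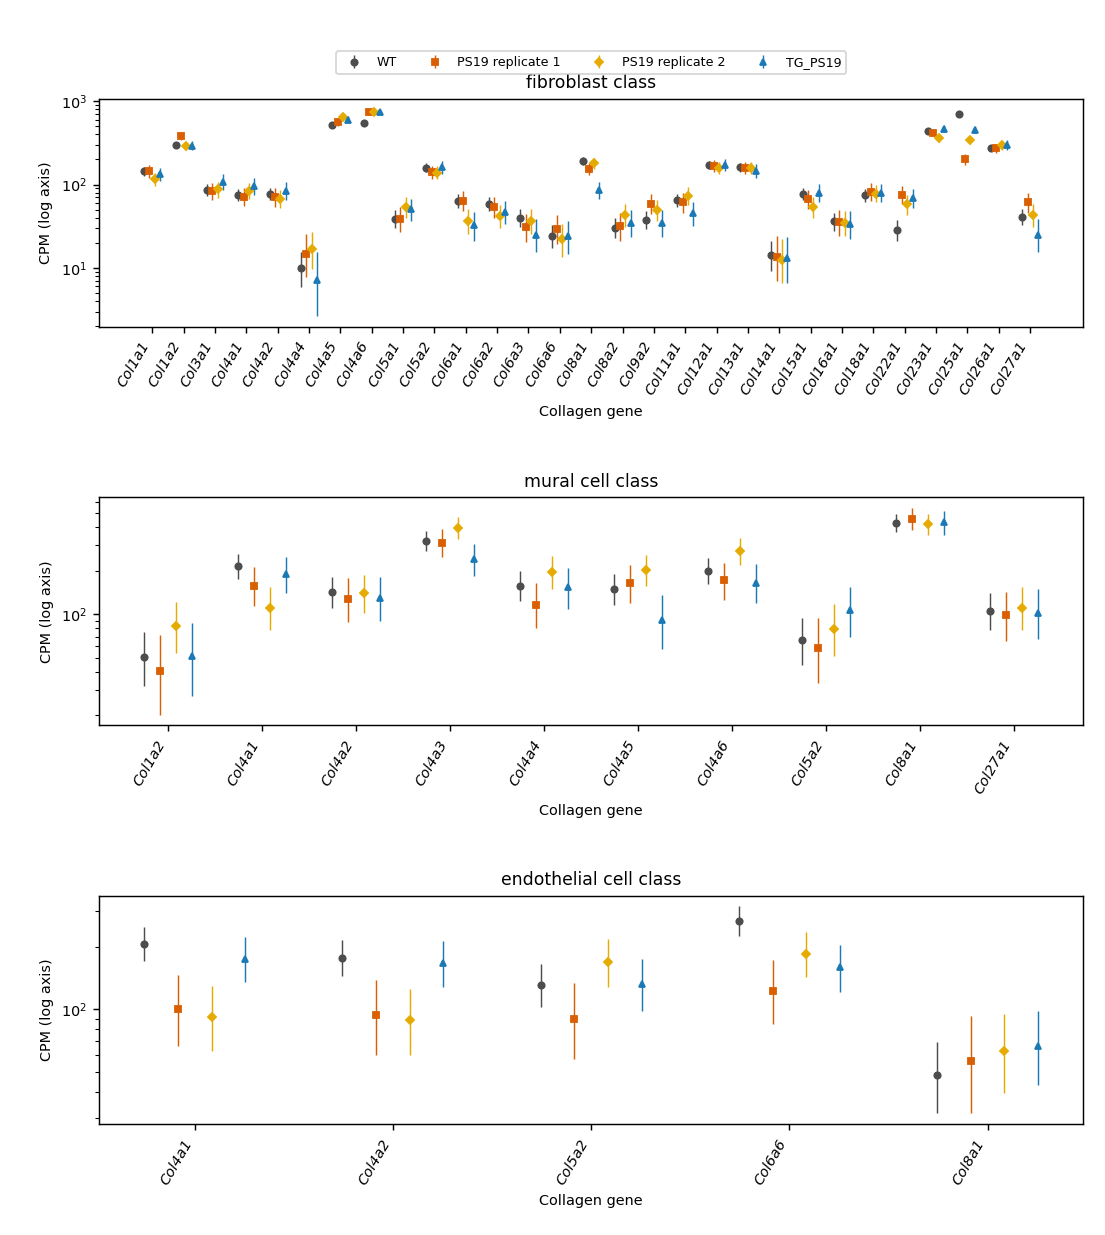
Level of each collagen gene with at least 50 UMIs in fibroblasts, mural cells and endothelial cells (CPM, log axis), 1 point per library with its exact 95% Poisson interval, which covers counting error only. Col25a1 and Col22a1 in fibroblasts stand apart between WT and PS19, and Col4a1 and Col4a2 in endothelial cells lie lower in both PS19 libraries than in WT and TG_PS19.

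Mural cells were marked by type IV and type VIII genes. Col8a1 was at 433 CPM in WT, 459.9 and 422 CPM in PS19 replicates 1 and 2, and 433 CPM in TG_PS19 and did not separate the groups. Col4a3, which encodes a chain of the basement membrane of kidney and lung among others, was at 323, 314, 399 and 240.2 CPM. Its partner Col4a4 was at 158, 117, 197 and 154 CPM. In Col4a3 TG_PS19 was lowest, and in Col4a4 both lone libraries lay between the PS19 replicates. The mean level of Col4a3 was 319 CPM in mural cells against 7.91 in fibroblasts, the next of the tested classes. Col4a1 was at 215, 157, 111 and 189 CPM, with both PS19 libraries below WT and TG_PS19, and Col4a2 at 143, 128, 139 and 129.9 CPM, with no such order. Col4a6 was at 199.9, 172, 276 and 165 CPM. Col4a5 was at 149, 164, 203 and 90.6 CPM. For both X-linked genes TG_PS19 was lowest, and in this library 43.5% of mural nuclei had an Xist UMI. The mural class joined cluster 9, led by Atp13a5 and Slc38a11, and cluster 32, led by Myh11 and Acta2. Cluster 32 made up 4.75%, 9.93%, 7.43% and 2.15% of the class, with 4 nuclei in TG_PS19. The part of these shares and of the sex of the nuclei in the Col4a5 and Col4a6 levels was not tested. Col27a1 was at 105, 98.6, 111 and 102 CPM, Col5a2 at 65.9, 58.4, 79.2 and 106 CPM. Col1a2 was at 50.5, 40.2, 82.4 and 51.2 CPM. The groups overlapped for Col27a1 and Col1a2, and TG_PS19 was highest for Col5a2.

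In the edgeR quasi-likelihood test over all genes of a class, 14 collagen genes were tested in mural cells and 0 were called at an adjusted p of 0.05 in either comparison. At an unadjusted p under 0.05 there was 1 for PS19 against WT and there were 2 for TG_PS19 against PS19, beside 5.83% and 8.41% of all genes in the class. DESeq2 called 0. Of all 6636 genes tested in the class, 0.753% and 1.15% were called. Col4a1 (PS19 against WT, log2 fold change −0.68, SE 0.30, adjusted p 0.642) and Col4a5 (TG_PS19 against PS19, log2 fold change −0.96, SE 0.37, adjusted p 0.265) had the largest differences among the genes with 50 UMIs.

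Endothelial cells line the vessels. Their collagens were Col6a6, Col4a1, Col4a2, Col5a2 and Col8a1. Col4a1 was at 208 CPM in WT, 101 and 91.6 CPM in PS19 replicates 1 and 2, and 176 CPM in TG_PS19. Its 95% Poisson intervals ran from 172 to 249 CPM in WT, from 66.5 to 147 CPM in PS19 replicate 1, from 62.7 to 129 CPM in replicate 2 and from 136 to 223 CPM in TG_PS19. Col4a2 was at 178, 93.5, 88.8 and 168 CPM. Both PS19 libraries were thus at about the same level and below both lone libraries for each of these paired genes. None of these differences passed the test over all genes (edgeR, PS19 against WT): log2 fold change −1.08, SE 0.31, adjusted p 0.0709 for Col4a1 and log2 fold change −0.93, SE 0.32, adjusted p 0.23 for Col4a2. For TG_PS19 against PS19 the values were log2 fold change 0.90, SE 0.33, adjusted p 0.273 and log2 fold change 0.91, SE 0.34, adjusted p 0.278 (edgeR). The endothelial class joined cluster 15 (led by Slco1a4 and Flt1), cluster 16 (led by Gm5127 and Vwf) and cluster 24 (led by Eln and Bmx). Col4a1 was at 234, 158, 179 and 225 CPM in cluster 15, 169, 61.2, 61.9 and 154 CPM in cluster 16 and 274, 95.9, 30.5 and 121 CPM in cluster 24, so that PS19 was lower than WT in all 3 clusters, by the most in cluster 24 with 4 and 2 UMIs.

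Col6a6, a type VI chain, was at 268, 123, 186 and 159.6 CPM over the class and at 501, 245, 366 and 432 CPM in cluster 16, against at most 53.6 CPM in cluster 15 and 12.4 CPM in cluster 24. WT was highest. Col8a1 was at 48.0, 56.1, 63.0 and 66.5 CPM over the class and at 286, 312, 319.8 and 264 CPM in cluster 24. Col5a2 was at 131, 89.7, 169 and 133 CPM, with 4.88, 10.5, 0 and 6.44 CPM in cluster 15, 144, 84.2, 101 and 77.1 CPM in cluster 16 and 410.4, 288, 624 and 429 CPM in cluster 24. For Col5a2 both lone libraries lay between the PS19 replicates. In endothelial cells 7 collagen genes were tested and edgeR called 0 in either comparison, where 0.679% and 0.897% of all 7801 genes were called. At an unadjusted p under 0.05 there were 3 and 2, beside 6.67% and 7.01% of all genes. DESeq2 called 0. Fibroblast markers summed to 171, 239, 109 and 101 CPM in endothelial cells, so that the highest fibroblast signal was in PS19 replicate 1.

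Over the 14 classes of the heat map, the paired type IV genes followed each other. Pearson's r of log2(CPM + 1) over these classes was 0.97 for Col4a1 with Col4a2, 0.95 for Col4a3 with Col4a4 and 0.88 for Col4a5 with Col4a6. These are descriptions over classes of the same 4 libraries, which share depth, and carry no test. Col4a1 and Col4a2 were highest in mural and endothelial cells and also present in neurons, at a mean of 56.2 and 75.5 CPM in CA1 pyramidal neurons and 54.5 and 72.0 CPM in other excitatory neurons. Col4a3 and Col4a4 were in mural cells and choroid plexus epithelium. Col4a5 and Col4a6 parted in astrocytes, where Col4a5 was at 64.6, 73.0, 82.5 and 53.0 CPM. Col4a6 was at 5.80, 19.4, 19.1 and 7.33 CPM.

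**Figure D3:**
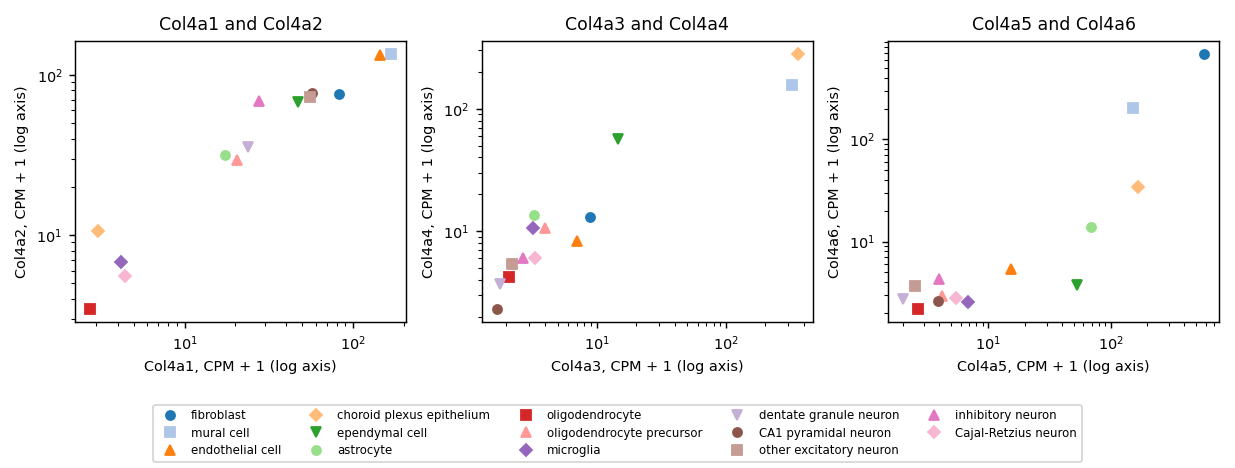
Mean level of the type IV collagen genes of each head-to-head pair in 14 classes (CPM + 1, log axes), 1 point per class. Points run along a rising diagonal in each panel (Pearson's r 0.97, 0.95 and 0.88), with fibroblasts at the top right for Col4a5 and Col4a6 and mural cells at the top right for Col4a1 and Col4a2.

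Col25a1, a transmembrane collagen made by neurons and found in amyloid deposits, was at 256 CPM in WT, 197 and 199 CPM in PS19 replicates 1 and 2, and 242 CPM in TG_PS19 in dentate granule neurons. In inhibitory neurons it was at 211, 163, 511 and 328 CPM and spread widely, with the PS19 replicates on either side of both lone libraries. In CA1 pyramidal neurons it was at 138, 112, 71.2 and 101 CPM, with WT highest. Col19a1, a FACIT collagen that interneurons make, was at 248, 339, 322 and 145 CPM in inhibitory neurons, against a mean of 13.1 CPM in other excitatory neurons, the next class. It sat in cluster 18, at 319, 448, 377 and 248 CPM. Inhibitory neurons also held Col26a1 at 41.7, 45.4, 46.0 and 44.8 CPM. Col14a1 was at 9.43, 10.9, 35.2 and 18.5 CPM, the latter highest in PS19 replicate 2.

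Col11a1 was the collagen of several neuron classes at once. It was at 185, 122, 114 and 163 CPM in CA1 pyramidal neurons, 123, 144, 169 and 136 CPM in other excitatory neurons and 196, 194, 213 and 224 CPM in Cajal-Retzius neurons. The WT library was highest in CA1 neurons, lowest in other excitatory neurons and between the PS19 replicates in Cajal-Retzius neurons. Col6a1 was at 23.4, 30.1, 38.3 and 17.1 CPM in other excitatory neurons, and Col5a1, Col19a1 and Col12a1 ranged from 5.95 to 28.3 CPM there. Col23a1 was at 28.6, 50.9, 43.3 and 36.2 CPM in other excitatory neurons and at 27.8, 18.4, 21.7 and 24.5 CPM in dentate granule neurons. PS19 was higher than WT in the former and lower in the latter, and neither difference was called (edgeR, adjusted p 0.377 and 0.168).

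Among glia, astrocytes held Col11a2, Col16a1 and Col4a5, and oligodendrocyte precursors held Col11a1, Col9a3, Col11a2, Col16a1 and Col5a3. Col9a3, a chain of the FACIT collagen type IX, was at 77.7, 68.1, 63.5 and 47.3 CPM in precursors, 52.7, 56.5, 43.7 and 41.2 CPM in astrocytes and 34.4, 40.9, 36.2 and 24.4 CPM in oligodendrocytes. TG_PS19 was lowest in all 3. Col11a1 was at 149, 154, 134 and 130.1 CPM. Col5a3 was at 42.7, 37.4, 35.7 and 40.7 CPM in precursors, with no order by genotype in Col11a1. The lowest of the precursor genes named by level were Col9a2, Col20a1 and Col24a1, with a mean of 13.5, 15.1 and 15.5 CPM. In oligodendrocytes Col9a1 was at 22.4, 19.5, 15.9 and 21.4 CPM. Microglia were marked by Col27a1, described with the calls, and Col15a1 at 59.2, 47.4, 43.1 and 68.9 CPM, where both PS19 libraries were below both lone libraries (edgeR, adjusted p 0.58 and 0.184). No collagen of precursors or Cajal-Retzius neurons was called in either comparison by edgeR or DESeq2. In precursors 6 and 2 of 17 had an unadjusted p under 0.05, beside 6.87% and 11.5% of all genes, where edgeR called 0.347% and 2.07% of all genes. In Cajal-Retzius neurons 0 of 3 had an unadjusted p under 0.05 in either comparison, beside 4.91% and 6.40% of all genes, where it called 0.323% and 0.509% of all genes.

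Choroid plexus epithelium was absent from the WT library and had 26, 23 and 41 nuclei in the PS19 replicates and TG_PS19, so that no comparison was made. Col8a1 was at 871, 1125 and 1549 CPM in these 3 libraries and Col9a3 at 1166, 1435 and 731 CPM, so that TG_PS19 was highest in the first and lowest in the second. Col4a3, Col4a4, Col8a2, Col4a5 and Col18a1 had means of 356, 281, 229, 167 and 90.0 CPM there. The 7 collagen genes without a place in any class by level or call were Col2a1, Col6a4, Col6a5, Col7a1, Col10a1, Col17a1 and Col28a1. They had 43 to 229 UMIs each over all named nuclei, with the highest level over the tested classes in oligodendrocytes for Col2a1, in mural cells for Col7a1 and Col28a1, and in neurons or microglia for the rest.

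The comparison of PS19 with WT asks what goes with the tau transgene. Collagen genes were called in both directions. Col16a1, a FACIT collagen that connects cells and matrix, was higher in PS19 oligodendrocytes and astrocytes. Col25a1 was lower and Col22a1 higher in PS19 fibroblasts, and Col25a1 and Col6a1 were lower in dentate granule neurons. Of 210 tests (42 genes in up to 12 classes), edgeR called 16 at an adjusted p of 0.05, which is 7.62%, with 6 higher and 10 lower in PS19. Among all 144988 tests 2.79% were called, 1.34% higher and 1.44% lower. The median log2 fold change was −4.51e-05 over the collagen tests and 0.01 over all tests. At an unadjusted p under 0.05 there were 56 of 210, and 10.6% of all tests. DESeq2 called 1 of the 16, Col16a1 in oligodendrocytes. It gave an adjusted p for 12 of the 16 and for 114497 of all tests, and called 0.319% of the latter.

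Oligodendrocytes gave 5 calls in 33 tests (5.96% of all genes in the class were called). Col16a1 was at 12.2 CPM in WT, 38.0 and 37.5 CPM in PS19 replicates 1 and 2, and 12.98 CPM in TG_PS19. The intervals ran from 9.65 to 15.1 CPM in WT, from 32.7 to 44.0 CPM in PS19 replicate 1, from 32.8 to 42.7 CPM in replicate 2 and from 10.3 to 16.1 CPM in TG_PS19, so that both PS19 libraries stood apart from both lone libraries. The test gave a log2 fold change of 1.68, SE 0.20, adjusted p 4.93e-08 (edgeR). The same order was found in each of the 3 large clusters of the class. Col16a1 was at 8.17, 32.4, 36.0 and 9.91 CPM in cluster 1, 15.4, 43.4, 38.5 and 12.2 CPM in cluster 3 and 16.7, 36.6, 24.9 and 19.8 CPM in cluster 4. Its adjusted p was at most 0.0042 in the 10 alternatives with a test, among them nuclei thinned to 1000 UMIs. The median depth of oligodendrocyte nuclei was 1931 UMIs in WT, 2421 and 3031 in PS19 and 1997.5 in TG_PS19. Astrocyte markers, of which all 8 had UMIs in oligodendrocytes of every library, summed to 648, 283, 241 and 468 CPM there, lowest in PS19. Precursor markers (all 7 present) summed to 97.6, 126, 149 and 109.8 CPM, highest in PS19, and their part in the result was not tested.

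The other oligodendrocyte calls were at low levels. Col20a1, another FACIT collagen, was at 1.82, 7.14, 6.45 and 1.72 CPM, higher in both PS19 libraries (log2 fold change 1.92, SE 0.46, adjusted p 0.00493, edgeR). Of its UMIs in the PS19 replicates, 11 of 34 and 12 of 39 came from cluster 30, which held 14 and 20 PS19 nuclei, 2 WT nuclei and 10 TG_PS19 nuclei. In cluster 1 alone Col20a1 was not called (adjusted p 0.878, edgeR). Col11a2, a fibrillar chain, was at 22.4, 13.9, 11.7 and 15.3 CPM (log2 fold change −0.77, SE 0.21, adjusted p 0.0202, edgeR). Col6a3 was at 6.39, 1.89, 1.65 and 2.19 CPM (log2 fold change −1.80, SE 0.45, adjusted p 0.00854, edgeR) and Col1a2 at 5.47, 1.89, 1.82 and 2.19 CPM (log2 fold change −1.51, SE 0.47, adjusted p 0.0438, edgeR). For these 3 genes WT was above all other libraries, TG_PS19 included. Fibroblast markers, of which all 9 had UMIs in every library, summed to 52.9, 22.0, 20.5 and 25.0 CPM in oligodendrocytes, so that they too were highest in WT. Their part in the Col6a3 and Col1a2 results was not tested. Astrocyte markers were highest in WT as well, as given above, and cluster 4 made up 27.1% of the class in WT, 15.5% and 9.48% in PS19 and 31.8% in TG_PS19. The part of either in the Col11a2 result was not tested.

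Astrocytes gave 5 calls in 28 tests (5.78% of all genes in the class were called). Col16a1 was at 60.7 CPM in WT, 106 and 94.2 CPM in PS19 replicates 1 and 2, and 62.4 CPM in TG_PS19, with both PS19 libraries above both lone libraries (log2 fold change 0.69, SE 0.15, adjusted p 0.000266, edgeR). It was higher in both PS19 libraries than in WT in each cluster, at 59.8, 98.8, 86.3 and 63.6 CPM in cluster 0, 82.1, 119, 100.2 and 56.4 CPM in cluster 10 and 46.7, 98.7, 149 and 47.0 CPM in cluster 19. Col4a6 was at 5.80, 19.4, 19.1 and 7.33 CPM (log2 fold change 1.70, SE 0.30, adjusted p 1.55e-06, edgeR). In cluster 0 it was at 3.13, 1.34, 4.36 and 3.75 CPM, with no difference between PS19 and WT that passed the test (adjusted p 0.998, edgeR). In cluster 10 it was at 39.4, 41.2, 28.0 and 78.96 CPM and in cluster 19 at 2.12, 109, 138 and 0 CPM. Cluster 10, led by Myoc and Gfap, made up 8.29% of WT astrocytes, 32.1% and 30.1% of PS19 astrocytes and 5.54% of TG_PS19 astrocytes. The part of these shares in the Col4a6 and Col27a1 results was not tested beyond the values by cluster.

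Col27a1 rose in PS19 astrocytes, at 21.2, 34.2, 34.1 and 14.9 CPM (log2 fold change 0.66, SE 0.21, adjusted p 0.0299, edgeR). Within cluster 0 its log2 fold change turned to −0.10 (adjusted p 0.966, edgeR), with levels of 21.8, 22.7, 17.5 and 14.6 CPM, while in cluster 10 it was at 23.0, 54.5, 58.7 and 18.8 CPM. Col11a2 was at 102, 79.2, 73.9 and 93.8 CPM (log2 fold change −0.44, SE 0.15, adjusted p 0.0443, edgeR). Both PS19 libraries were below both others. Col1a2 was at 4.19, 0, 1.495 and 2.82 CPM, from 34, 0, 5 and 15 UMIs (log2 fold change −2.28, SE 0.74, adjusted p 0.041, edgeR). The log2 fold change was −1.49 without PS19 replicate 1, and without replicate 2 WT was at least 3.39-fold higher, with 3 counts taken as the limit for replicate 1. Fibroblast markers summed to 237, 149, 144 and 226 CPM in astrocytes, with 9, 8, 7 and 9 of 9 present. Slc47a1 was at 0 in both PS19 replicates and Slc22a6 in replicate 2, and the part of fibroblast RNA in the Col1a2 value was not tested.

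In fibroblasts 2 of 32 collagen genes were called, against 2.94% of all 11823 genes. Col25a1 was at 693 CPM in WT, 202 and 344 CPM in PS19 replicates 1 and 2, and 456 CPM in TG_PS19, with intervals of 656 to 733 CPM, 173 to 233 CPM, 308 to 383 CPM and 412 to 504 CPM. All 4 libraries stood apart, with WT highest and the PS19 replicates lowest (log2 fold change −1.32, SE 0.15, adjusted p 3.67e-15, edgeR). For Col25a1 this value was −0.98 without PS19 replicate 1 and −1.77 without replicate 2. Nearly all of its UMIs came from cluster 17, where it was at 2449.8, 1218, 1886 and 2746 CPM, while it was at 21.0, 4.47, 9.76 and 3.32 CPM in cluster 5. Within cluster 17 both PS19 libraries were below WT and TG_PS19. Cluster 17 also made up a larger share of WT fibroblasts than of the others, as given above, and the part of these shares in the result was not tested. In cluster 5 alone the adjusted p was 0.427, and with finer clusters (resolution 2.0) it was 0.402 (edgeR). At resolution 2.0 a cluster of 189 nuclei led by Slc47a1, Gm6260 and Bnc2, which also led cluster 17, was left unnamed. These nuclei were thus outside the fibroblast class in that fit. Col22a1 (chr15:71795795-72034227, GRCm38, minus strand), a FACIT collagen of tissue junctions, was at 28.5, 75.1, 57.8 and 68.3 CPM (log2 fold change 1.23, SE 0.28, adjusted p 0.00119, edgeR). Nearly all of its UMIs came from cluster 5, at 41.2, 98.4, 75.3 and 91.2 CPM, with 0 UMIs in cluster 17. WT was lower than the other 3 libraries in both measures.

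Microglia gave 1 call in 6 tests (8.67% of all genes in the class were called). Col27a1, a fibrillar collagen best known from cartilage, was at 251 CPM in WT, 174 and 174 CPM in PS19 replicates 1 and 2, and 372 CPM in TG_PS19 (log2 fold change −0.53, SE 0.18, adjusted p 0.0379, edgeR). Cluster 7, led by Siglech and Inpp5d, made up 92.7% of microglia in WT, 18.6% and 16.6% in PS19 and 93.9% in TG_PS19, and cluster 12, led by Ly86 and Fyb, made up the rest. Col27a1 was at 259, 283, 235 and 370.5 CPM in cluster 7 and at 165, 155, 162 and 394 CPM in cluster 12. Within either cluster the counting intervals of WT and PS19 overlapped, as the plot by cluster shows.

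Neurons gave 3 calls. Col25a1 fell by a small step in dentate granule neurons, where its levels are given above (log2 fold change −0.35, SE 0.10, adjusted p 0.0211, edgeR). Col6a1 was at 22.9, 11.3, 9.75 and 13.5 CPM there, with WT above all other libraries (log2 fold change −1.11, SE 0.20, adjusted p 1.08e-05, edgeR). These were 2 of 25 tests in the class, in which 3.0% of all genes were called. In CA1 pyramidal neurons 1 of 11 was called, against 0.379% of all genes. It was Col11a1, whose PS19 libraries were below WT and TG_PS19 (log2 fold change −0.70, SE 0.18, adjusted p 0.0299, edgeR). No collagen was called in inhibitory or other excitatory neurons by edgeR or DESeq2, with 3 of 18 and 8 of 16 at an unadjusted p under 0.05. Of all genes 5.42% and 7.29% were, and edgeR called 0.232% and 0.611% in these classes.

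Of the 16 calls, Col16a1 and Col6a3 in oligodendrocytes kept an adjusted p under 0.05 in every alternative that gave them one, which were 10 and 9 (edgeR, and DESeq2 for Col16a1). With every nucleus thinned to 1000 UMIs edgeR called 4, and with the largest cluster of each class alone it called 7.

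**Figure D4:**
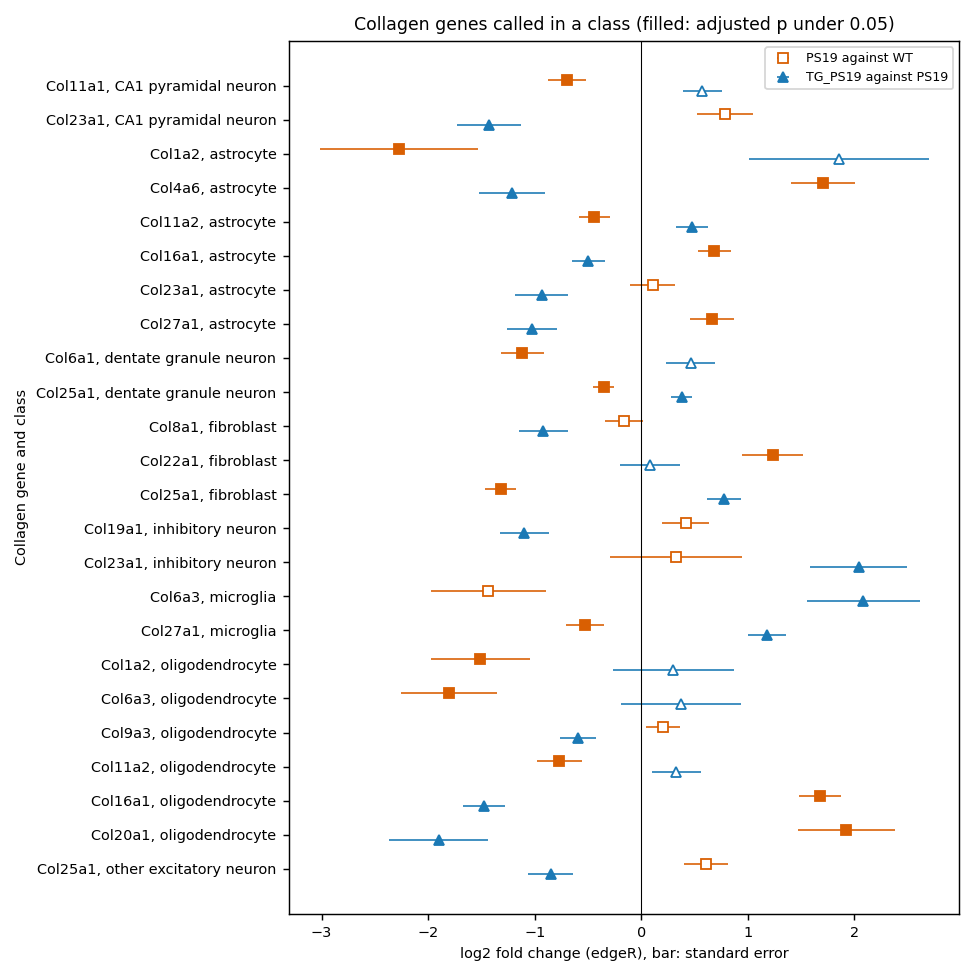
Log2 fold changes (points) with standard errors (bars) from edgeR for the 24 pairs of collagen gene and class called in at least 1 comparison, PS19 against WT (squares) and TG_PS19 against PS19 (triangles). Filled symbols have an adjusted p under 0.05. Both comparisons use the same PS19 libraries, so that their values for a pair are not independent.

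TG_PS19 was set against PS19 to ask what goes with extra SORLA on the background of mutant tau. Here too they were called in both directions. Col16a1 was lower in TG_PS19 oligodendrocytes and astrocytes, Col27a1 was higher in TG_PS19 microglia and lower in astrocytes, and Col8a1 was lower in fibroblasts. Of 210 tests edgeR called 17, or 8.10%, with 6 higher and 11 lower in TG_PS19. Among all 144988 tests 4.71% were called, 3.05% higher and 1.66% lower. The median log2 fold change was 0.02 over the collagen tests and −0.01 over all tests. At an unadjusted p under 0.05 there were 52 of 210, and 14.2% of all tests. DESeq2 called 1 of the 17, again Col16a1 in oligodendrocytes. It gave an adjusted p for 14 of the 17 and for 78062 of all tests, and called 0.945% of the latter. This comparison shares the PS19 libraries with the other, so that its values are given beside those above and not as a second test of them.

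In fibroblasts 2 of 32 were called, against 2.28% of all genes. Col8a1 (chr16:57624258-57754737, GRCm38, minus strand) was at 191 CPM in WT, 155 and 181 CPM in PS19 replicates 1 and 2, and 86.2 CPM in TG_PS19 (log2 fold change −0.92, SE 0.23, adjusted p 0.00604, edgeR). The TG_PS19 library stood below all 3 others, whose intervals overlapped. By cluster it was at 123, 129.7, 197 and 76.3 CPM in cluster 5 and 386, 338, 183 and 188 CPM in cluster 17, where PS19 replicate 2 was as low as TG_PS19. Col25a1 gave a log2 fold change of 0.78, SE 0.16, adjusted p 0.000256 (edgeR). It was 0.44 without PS19 replicate 1 and 1.23 without replicate 2, and in cluster 5 alone, where few of its UMIs lie, it was −1.05 (adjusted p 0.858, edgeR). With the TG_PS19 group cut down to its nuclei with Y-linked and no Xist UMIs, 70 of them fibroblasts, the adjusted p was 0.523 for both genes (edgeR).

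Microglia gave 2 calls in 6 tests (8.98% of all genes in the class were called). Col27a1 (chr4:63214004-63334991, GRCm38, plus strand) was above all other libraries in TG_PS19 (log2 fold change 1.18, SE 0.18, adjusted p 1.91e-09, edgeR), and its level in TG_PS19 was higher than in every other library in cluster 7 and in cluster 12, as given above. Col6a3 was at 25.1, 11.1, 7.61 and 37.2 CPM, from 25, 7, 6 and 27 UMIs (log2 fold change 2.08, SE 0.53, adjusted p 0.00222, edgeR). Both PS19 libraries were below both lone ones. As the clusters hold different shares of the class in the groups, the values by cluster for Col6a3 are given too, 26.3, 10.5, 7.83 and 40.0 CPM in cluster 7 and 11.8, 11.2, 7.57 and 0 CPM in cluster 12, and the PS19 values in cluster 7 rest on 1 UMI each.

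In oligodendrocytes 3 of 33 were called, against 7.27% of all genes. Col16a1 gave a log2 fold change of −1.48, SE 0.19, adjusted p 9.31e-07 (edgeR), with the levels given above, and TG_PS19 lay within the interval of WT. Its adjusted p was at most 0.0182 in the 11 alternatives with a test, among them the fit with only those TG_PS19 nuclei that had Y-linked and no Xist UMIs. Col20a1 was also lower in TG_PS19 (log2 fold change −1.90, SE 0.47, adjusted p 0.00667, edgeR). Col9a3 was lowest in TG_PS19 (log2 fold change −0.59, SE 0.17, adjusted p 0.0214, edgeR), and its call was lost in 7 of 11 alternatives. In cluster 30 Col9a3 was at 179, 385, 369 and 182 CPM, above its level in the other clusters of every library.

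**Figure D5:**
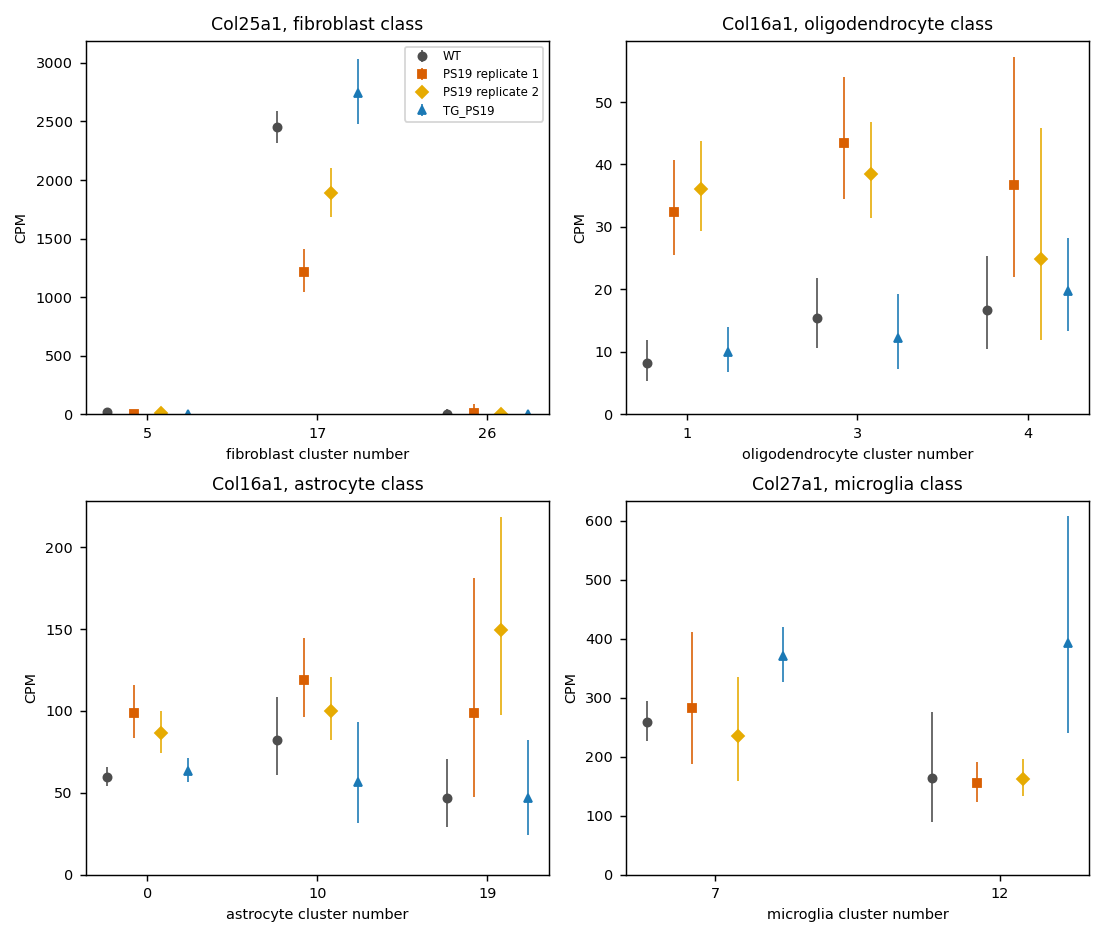
Levels by cluster (CPM, linear axes from 0) of Col25a1 in fibroblasts, Col16a1 in oligodendrocytes and astrocytes, and Col27a1 in microglia, 1 point per library with its exact 95% Poisson interval. Only clusters with at least 10 nuclei in every library are drawn. Col25a1 lies in cluster 17, and Col16a1 is higher in both PS19 libraries than in WT and TG_PS19 in oligodendrocyte clusters 1 and 3.

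Astrocytes gave 5 calls in 28 tests (9.29% of all genes in the class were called), 1 higher and 4 lower. Col16a1 was lower in TG_PS19 than in PS19 (log2 fold change −0.50, SE 0.16, adjusted p 0.0207, edgeR). Col27a1 (log2 fold change −1.02, SE 0.23, adjusted p 0.000388), Col4a6 (log2 fold change −1.21, SE 0.31, adjusted p 0.0023) and Col11a2 (log2 fold change 0.47, SE 0.15, adjusted p 0.0233) were called as well (edgeR), at the levels given above. Col23a1, a transmembrane collagen, was at 25.2, 31.8, 24.2 and 12.8 CPM (log2 fold change −0.93, SE 0.25, adjusted p 0.00373, edgeR), with TG_PS19 below all others and WT between the PS19 replicates. In cluster 0 alone none of these 5 was called by edgeR. There the log2 fold changes were −0.43 for Col16a1 (adjusted p 0.18), 0.41 for Col11a2 (0.176), −0.33 for Col27a1 (0.704), −0.66 for Col23a1 (0.252) and 0.39 for Col4a6 (0.886). That of Col4a6 thus turned.

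Neurons gave 5 calls in 4 classes. Col25a1 was higher in TG_PS19 dentate granule neurons (log2 fold change 0.38, SE 0.10, adjusted p 0.00437, edgeR), the 1 call in 25 tests (9.27% of all genes). In other excitatory neurons Col25a1 was at 58.4, 66.8, 112 and 47.8 CPM, the 1 call in 16 (3.31% of all genes) (log2 fold change −0.85, SE 0.21, adjusted p 0.00345, edgeR). PS19 replicate 2 was far above the other 3 libraries there, and without it the value was −0.37. Cluster 20 made up 63.8% of this class in WT, 62.9% and 57.6% in PS19 and 39.1% in TG_PS19. Cluster 22 made up the rest. The part of these shares in the Col25a1 result was not tested. In CA1 pyramidal neurons Col23a1 was at 25.1, 58.2, 32.3 and 15.3 CPM, the 1 call in 11 (2.09% of all genes) (log2 fold change −1.43, SE 0.30, adjusted p 0.000429, edgeR). Its PS19 replicates also differed, and the value turned to 0.0586 with doublets kept and 0.17 at resolution 2.0. Under these settings the CA1 class also held 471 and 488 nuclei of cluster 13, led by Vwc2l and Tshz2 and otherwise unnamed, in which Col23a1 was at 127, 90.0, 137 and 166 CPM.

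In inhibitory neurons 2 of 18 were called, against 0.903% of all genes. Col19a1 was lower in TG_PS19 (log2 fold change −1.10, SE 0.23, adjusted p 0.023, edgeR), and in cluster 18, which makes most of it, TG_PS19 was lowest too. Cluster 18 held 57.7% of the class in WT, 67.2% and 81.0% in PS19 and 47.8% in TG_PS19. Col23a1 was at 7.07, 7.26, 9.78 and 34.8 CPM (log2 fold change 2.04, SE 0.45, adjusted p 0.0316, edgeR). Of the 45 TG_PS19 UMIs, 41 came from cluster 23, where the levels were 2.95, 14.5, 20.003 and 73.1 CPM. The WT and PS19 levels in that cluster rest on 1 to 3 UMIs.

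With library totals in place of TMM scaling there were also 17 calls, 15 of them shared with the TMM calls. Of these 17, 23.5% were higher in TG_PS19, against 35.3% with TMM. Of the 17 calls, Col16a1 in oligodendrocytes kept its call in every alternative.

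The genes that modify, process, degrade and bind collagens are listed by their work in the pathway. Over the 12 classes, the list of enzymes and chaperones of the endoplasmic reticulum (19 genes, 164 tests) had 3 called higher and 2 lower in PS19 than in WT. Propeptide processing and crosslinking (15 genes, 68 tests) had 1 and 1, and collagen receptors (10 genes, 67 tests) had 1 and 1. Breakdown and its inhibitors (14 genes, 77 tests) had 2 higher and 6 lower. Matrix partners such as laminins and decorin (19 genes, 131 tests) had 1 higher and 11 lower. Decorin (Dcn), a fibroblast marker, was called lower in astrocytes, dentate granule neurons, mural cells and oligodendrocytes, and higher in other excitatory neurons. Summed fibroblast markers were highest in WT in each class where Dcn was lower. Dcn is itself 1 of the summed markers, so that this sum is not separate from the Dcn values. The part of fibroblast RNA in these Dcn calls was not tested. Of all tests 2.79% were called in this comparison and 4.71% in the other, as given above. The median log2 fold changes of the 5 lists lay between −0.11 and 0.06, beside 0.01 over all genes. For TG_PS19 against PS19 the calls, higher and lower, were 4 and 5, 2 and 2, 1 and 4, 7 and 0, and 4 and 2 in the same order, with medians between −0.10 and 0.19.

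The genes named next had an adjusted p under 0.05 (edgeR). In fibroblasts Timp3, an inhibitor of matrix metalloproteinases, was higher in PS19 than in WT (log2 fold change 0.76, SE 0.15), and fibronectin (Fn1) was lower (−0.98, SE 0.20). Fn1 was higher in TG_PS19 than in PS19 (0.79, SE 0.22), and the laminin chain Lama1, which is also a marker of the class, was lower (−0.57, SE 0.14). Fibroblast cluster 17 made up 21.1%, 12.2%, 14.6% and 13.3% of the class, and the part of these shares in the Timp3, Fn1 and Lama1 results was not tested. In mural cells decorin (Dcn), which is a marker of fibroblasts, was lower in PS19 than in WT (−2.37, SE 0.65). Fibroblast markers, Dcn among them, summed to 233, 73.0, 95.1 and 177 CPM in mural cells. No gene of these lists was called in endothelial cells by edgeR. In astrocytes P3h2 and P4ha3, which hydroxylate prolines of collagen chains, were higher in PS19 (1.69, SE 0.26, and 0.99, SE 0.21) and lower in TG_PS19 than in PS19 (−1.22, SE 0.27, and −1.39, SE 0.24). The collagen receptor Ddr1 was likewise higher in PS19 (0.76, SE 0.15) and lower in TG_PS19 (−1.30, SE 0.16), and the collagenase Mmp14 was lower (−1.05, SE 0.20) and higher (0.89, SE 0.21). Astrocyte cluster 10 made up 8.29% of the class in WT, 32.1% and 30.1% in PS19 and 5.54% in TG_PS19, and the part of these shares in the 4 results was not tested. Timp4, another inhibitor of matrix metalloproteinases, was higher in TG_PS19 than in PS19 in 4 classes (dentate granule, CA1 and other excitatory neurons and oligodendrocytes), with log2 fold changes from 1.00 to 1.76.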

How the data were processed

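Per the labels' protocols, nuclei from frozen hippocampi were run on 10x Chromium (3′ v3.1). The authors deposited filtered count matrices of UMIs per gene and nucleus, which per the file headers come from Cell Ranger 7.1.0; the submitters' processing notes name GRCm38. Whether intronic reads were counted is not given in the sources used here. Nuclei with at least 500 UMIs and 300 genes and at most 5% mitochondrial UMIs were kept, which removed 0 to 4 barcodes per library. Nuclei were then ranked by their likeness to simulated doublets, and the top share was left out. This share was set beforehand at 0.8% per 1000 nuclei and is not a measured doublet rate. It came to 10.2% of barcodes in WT, 3.70% and 3.94% in PS19 and 7.78% in TG_PS19. Clusters (2000 variable genes without collagens, 30 components, Leiden resolution 1.0, leidenalg 0.10.2) were named by marker lists. Counts were summed per class and library in the 12 classes with at least 50 nuclei in every library and tested with edgeR 4.0.16 (TMM, quasi-likelihood, all 4 libraries in 1 fit), with Benjamini-Hochberg adjustment per class over all genes. The spread came from the PS19 pair alone (1 residual degree of freedom) and was moderated across the genes of a class. The SE and p of a gene thus rest only partly on its own spread between the PS19 replicates. The lone WT and TG_PS19 libraries are assumed to vary like that pair. The PS19 libraries differed beyond counting noise in every class (chi-square per degree of freedom 1.61 to 3.07). TG_PS19 and WT were not tested against each other. Intervals are exact Poisson intervals at 95%, and they and the limit of 3 counts cover counting error only.

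Genes are named in a class if they had at least 50 UMIs and a mean of 10 CPM there, or were called. The collagen genes, the pathway and marker lists were chosen with earlier results of these data known. Alternatives were DESeq2 1.42.0, other scalings, no filter, a robust prior, doublets kept, resolution 2.0, thinning to 1000 UMIs, collagens among the variable genes, TG_PS19 nuclei called by Y-linked UMIs, leaving out a PS19 replicate and, added after seeing the data, the largest cluster of each class alone. R 4.3.3, Python 3.11.15 and RefSeq promoter windows were used.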

Additional observations from a re-analysis of the deposited data

Results flagged for a closer look

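For 3 collagen genes, every sample moved one way in 1 class and the opposite way in another under the same comparison. None of these differences between classes was tested. For Col27a1 the log2 fold change of PS19 against WT was 1.19 higher in astrocytes than in microglia, and that between TG_PS19 and PS19 was 2.21 higher in microglia than in astrocytes. For Col23a1 the log2 fold change between TG_PS19 and PS19 was 3.47 higher in inhibitory neurons than in CA1 pyramidal neurons and 2.97 higher than in astrocytes. For Col25a1 that between TG_PS19 and PS19 was 1.23 higher in dentate granule neurons, and 1.63 higher in fibroblasts, than in other excitatory neurons. No group had the 4 samples that a check for a sample far from the others needs.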

How the results depend on the processing

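The 16 and 17 calls (PS19 against WT, and TG_PS19 against PS19) became 1 and 1 with DESeq2. It gave an adjusted p for 12 and 14 of these calls. There were 4 and 3 with nuclei thinned to 1000 UMIs, which left 100 of 210 tests. With the largest cluster of each class alone, an alternative chosen after seeing the data, there were 7 and 4. Under the other settings there were 14 to 23 and 12 to 20, and with doublets kept 13 and 13 of the calls were shared. TG_PS19 nuclei with Y-linked UMIs alone gave 12, 7 of them shared. The direction turned for Col27a1 in astrocytes (PS19 against WT, −0.10), Col4a6 in astrocytes (TG_PS19 against PS19, 0.39) and Col25a1 in fibroblasts (TG_PS19 against PS19, −1.05) with the largest cluster alone. It also turned for Col23a1 in CA1 pyramidal neurons (TG_PS19 against PS19, 0.17 at resolution 2.0 and 0.0586 with doublets kept). Thinning and single clusters left fewer nuclei and genes. The CA1 class gained nuclei as given above, and the fibroblast class lost nuclei at resolution 2.0. The part of these in the changes, and any other cause, was not tested. Leaving out a PS19 replicate left no residual degrees of freedom, so that it gave values with no test. These moved 3 log2 fold changes by over 1.5 times, as given above. They were those of Col1a2 in astrocytes (PS19 against WT) and of Col25a1 in fibroblasts and other excitatory neurons (TG_PS19 against PS19). Scaling by library totals moved the median over all genes by −0.11 in CA1 pyramidal neurons and −0.18 in astrocytes (TG_PS19 against PS19). No paired analysis was possible because only the PS19 libraries carry replicate numbers. With 1 WT and 1 TG_PS19 library, genotype cannot be told apart from library or pool, and the depth of the smaller classes left mural and endothelial differences imprecise.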

Other observations

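Some nuclei were left without a class name, and collagen levels of some of their clusters are given as values only. The largest such cluster, cluster 8, held 784 nuclei at a median of 1000 UMIs. Of these, 111 were from WT, 11 and 10 from PS19 replicates 1 and 2, and 652 from TG_PS19. Col4a2, Col9a3 and Col25a1 had 55, 59 and 82 UMIs there over the libraries. Cluster 21, led by Sntb1, Gm34838 and Fabp7, held 283 of its 284 nuclei in WT, where Col11a1 was at 1059 CPM and Col23a1 at 483 CPM. Cluster 25 raised 4 of 8 ependymal markers but was left unnamed because of its leading genes, Sfta3-ps and Hpse2 among them. It had Col23a1 at 1006 CPM in WT, 1314 and 1353 CPM in PS19 replicates 1 and 2, and 631 CPM in TG_PS19. These levels rest on 197, 48, 136 and 7 UMIs from 60, 11, 24 and 4 nuclei in the same order. The Poisson interval of TG_PS19, 254 to 1300 CPM, overlapped that of every other library.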
